A study of Mus musculus with 40 samples.

Results

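The insulin and insulin-like growth factor (IGF) signalling genes described here are the ligand gene Igf1, the receptor genes Insr, Igf1r and Igf2r, the adaptor genes Irs1 and Irs2, and the binding protein genes Igfbp3, Igfbp4, Igfbp5 and Igfbp7. These 10 genes were taken by name from a table of 18024 genes, and all 10 were found. Messenger RNA was sequenced from 5 tissues (heart, kidney, ovary, pancreas and small intestine) of C57BL/6j mice aged 60 days, 24 hours after acute activation of p53. In each tissue 3 libraries came from Tg mice (Mdm2+/- Cag-CreERTg), which retain Mdm2, and 5 came from FMTg mice (Mdm2FM/- Cag-CreERTg), in which Mdm2 is lost. Both groups therefore carry the Cag-CreER transgene, whose promoter is not restricted to a cell type, and 1 Mdm2 allele written as minus, so the controls are not wild type. In all, 3 Tg and 10 FMTg mice gave the 40 libraries, and the same 3 Tg mice gave the Tg libraries of every tissue. The comparison asks how the level of each transcript differs between mice that lost and mice that retained Mdm2, whose product ubiquitinates p53 and so keeps it low.

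Insulin and IGF1 act through a pair of related receptor tyrosine kinases, the insulin receptor and the IGF1 receptor, which phosphorylate the adaptors IRS1 and IRS2. The adaptors recruit PI3-kinase, which activates AKT, and AKT promotes glucose uptake and protein synthesis and keeps FOXO transcription factors out of the nucleus. IGF-binding proteins carry IGF1 in the circulation and hold it in tissues, and the receptor encoded by Igf2r clears IGF2 and sorts lysosomal enzymes rather than signalling as a kinase. IGFBP3 and IGF1R are textbook connections between p53 and this pathway, the former as a p53 target and the latter as a gene repressed by p53.

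Upstream sequence was taken from RefSeq for 9 of the 10 genes (all but Insr), as the 250 bases before the annotated start on GRCm38.p6, and 4 of these windows are shown. Igfbp4 and Igfbp7 are the pair of members with the highest correlation of values, Igf2r holds the most matches, 3 GC boxes and 2 E-boxes, and Igfbp3 is the textbook p53 target. Capitals mark matches, on either strand, to the GC box, spelled GGGCGG. They also mark the E-box, spelled CACGTG, and the core promoter element spelled TATAAA.
Igfbp4, chr11:99040994-99041243, plus strand: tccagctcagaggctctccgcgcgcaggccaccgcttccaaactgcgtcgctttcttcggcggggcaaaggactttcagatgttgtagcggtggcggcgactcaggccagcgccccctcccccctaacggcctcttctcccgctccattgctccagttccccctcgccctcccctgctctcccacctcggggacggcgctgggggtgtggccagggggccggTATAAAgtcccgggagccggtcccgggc
Igfbp7, chr5:77408046-77408295, minus strand: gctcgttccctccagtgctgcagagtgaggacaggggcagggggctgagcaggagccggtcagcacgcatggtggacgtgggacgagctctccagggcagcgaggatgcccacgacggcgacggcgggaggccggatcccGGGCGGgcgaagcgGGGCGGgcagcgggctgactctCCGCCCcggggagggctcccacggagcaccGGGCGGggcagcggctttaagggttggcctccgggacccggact
Igfbp3, chr11:7213924-7214173, minus strand: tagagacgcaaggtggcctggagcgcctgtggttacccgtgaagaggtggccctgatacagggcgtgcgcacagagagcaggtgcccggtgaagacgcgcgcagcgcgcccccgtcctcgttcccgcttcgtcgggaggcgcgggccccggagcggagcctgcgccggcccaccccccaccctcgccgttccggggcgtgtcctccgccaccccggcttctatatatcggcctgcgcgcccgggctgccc
Igf2r, chr17:12769707-12769956, minus strand: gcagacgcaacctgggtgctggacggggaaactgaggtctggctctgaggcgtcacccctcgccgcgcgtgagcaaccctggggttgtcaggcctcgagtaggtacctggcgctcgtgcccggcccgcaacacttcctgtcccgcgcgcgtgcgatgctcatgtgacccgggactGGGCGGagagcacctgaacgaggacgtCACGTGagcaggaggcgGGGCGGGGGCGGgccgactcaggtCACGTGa
The GC box was found in 5 of the 9 windows (Igf1r, Igf2r, Irs1, Irs2 and Igfbp7). It was found in 33.0% of all 32536 distinct windows of 250 bases before annotated RefSeq starts. The E-box was found in 3 (Igf2r, Irs1 and Irs2; 6.04% of all windows) and the TATAAA element in Igfbp4 alone (12.3%). A p53 half-site, searched by its consensus, matched in 0 of 9 windows, against 7.12% of all windows, and a window without a match says nothing of p53 binding. The Igf2r window overlaps Airn, an antisense gene.

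Pancreas libraries held 7155461 to 13857213 reads, kidney libraries 14611826 to 27942108, ovary libraries 8974235 to 22969414, heart libraries 15272928 to 29031526 and intestine libraries 14409034 to 23258918. Mdm2 was higher in all 5 FMTg than in all 3 Tg libraries of each tissue, by 1.25 ± 0.15 on the mean of the tissues (limma, adjusted p = 9.4e-07), and because Mdm2 is itself a p53 target its level does not check the deletion. The p53 target Cdkn1a rose by 1.83 ± 0.24 (adjusted p = 5.81e-06), and both genes also passed in the kidney and the pancreas, the pancreas calls being lost in 6 and 7 of the 8 fits that left out 1 library. FMTg replicates 4 and 5 of each tissue came from mice with lower identity numbers and had more genes without reads than the other 6 libraries of their tissue. Heart FMTg replicates 4 and 5 carried hepatocyte transcripts such as Alb, with 6.16% and 0.938% of reads from 5 hepatocyte genes, against 0.00282% to 0.00756% in Tg hearts. Ovary FMTg replicates 4 and 5 carried adipocyte transcripts, 4.14 and 4.30 above the Tg mean on the log2 scale, and ovary Tg replicate 1 took 17.0% of its reads from 8 acinar genes. Each tissue expressed its defining markers, with 25.6% to 46.5% of pancreas reads from acinar genes and 3.73% to 4.30% of Tg heart reads from 7 cardiomyocyte genes. Markers of other tissues also reached some libraries of both genotypes. The 8 kidney genes took 1.84% to 2.59% of kidney reads. They took up to 0.523% in FMTg pancreases (median 0.00887%), 0.243% in FMTg hearts (median 0.00612%) and 0.327% in Tg intestines (median 0.0572%). Cardiomyocyte genes took up to 0.500% in Tg intestines (median 0.0668%) and intestinal epithelium genes up to 0.702% in FMTg ovaries (median 0.00821%). Erythroid markers were 0.97 to 2.66 above the Tg mean in the FMTg pancreases and -0.25 to 0.30 in Tg. Levels below are normalised reads (reads divided by the library's size factor), and differences are FMTg minus Tg on the deposited log2 scale with limma's standard error.

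Insr, which encodes the insulin receptor (ENSMUSG00000005534.10, chromosome 8, 3122061 to 3279617, minus strand), was lower in FMTg than in Tg mice on the mean of the 5 tissues. The mean difference was -0.46 ± 0.10 (limma, adjusted p = 0.0151, n = 40 libraries of 13 mice), a 1.38-fold lower level. It was 1 of 7 genes that fell on this measure, 0.0432% of 16185 tested, while 111 rose. No other member passed on the mean of the tissues, where 0.729% of all genes were called. In bulk tissue, fewer cells that express Insr and less Insr RNA per cell cannot be told apart.

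In the heart, where the Tg level was highest, Insr stood at 7403, 9136 and 8921 normalised reads in the 3 Tg libraries and at 7135, 4235, 6929.9, 4662 and 4877 in the 5 FMTg libraries. All FMTg hearts were below all Tg hearts, as for 3.49% of all genes in the heart, and replicates 2, 4 and 5 were furthest below. The difference was -0.63 ± 0.22 (adjusted p = 0.760). Heart FMTg replicate 2, the lowest for Insr, also had the smallest share of reads from the 7 cardiomyocyte genes (1.85%) and the highest fibroblast markers (2.26 above the Tg mean). Replicate 5, with the largest cardiomyocyte share (5.22%), was also low for Insr, and the part of these markers in the result was not tested.

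In the kidney the Tg libraries had 4672, 4714 and 5392 normalised reads of Insr and the FMTg libraries 4124, 4472, 3639, 2515 and 3369. The groups did not overlap (FMTg lower for 4.56% of all genes), replicate 4 was the lowest, and the difference was -0.47 ± 0.18 (adjusted p = 0.564). In the pancreas the Tg values were 4256, 4701 and 4409 and the FMTg values 3953, 3482, 3266, 3314 and 3256. Here the groups did not overlap (5.05% of all genes), FMTg replicate 1 was nearest to the Tg libraries, the other 4 lay close together, and the difference was -0.37 ± 0.12 (adjusted p = 0.383). In the ovary the Tg values were 3505, 3594 and 3619 and the FMTg values 2621, 3075, 2737, 3024 and 3131, a difference of -0.30 ± 0.12 (adjusted p = 0.720). The ovary had the narrowest spread within groups, and no FMTg library reached a Tg library (2.38% of all genes). In the small intestine the Tg values were 3549, 3629 and 3396 and the FMTg values 2988, 3207, 2729, 2234 and 1814, with a difference of -0.47 ± 0.19 (adjusted p = 0.990). Replicates 4 and 5 were the lowest of the intestine, and no FMTg value reached a Tg value (1.19% of all genes).

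**Figure D1:**
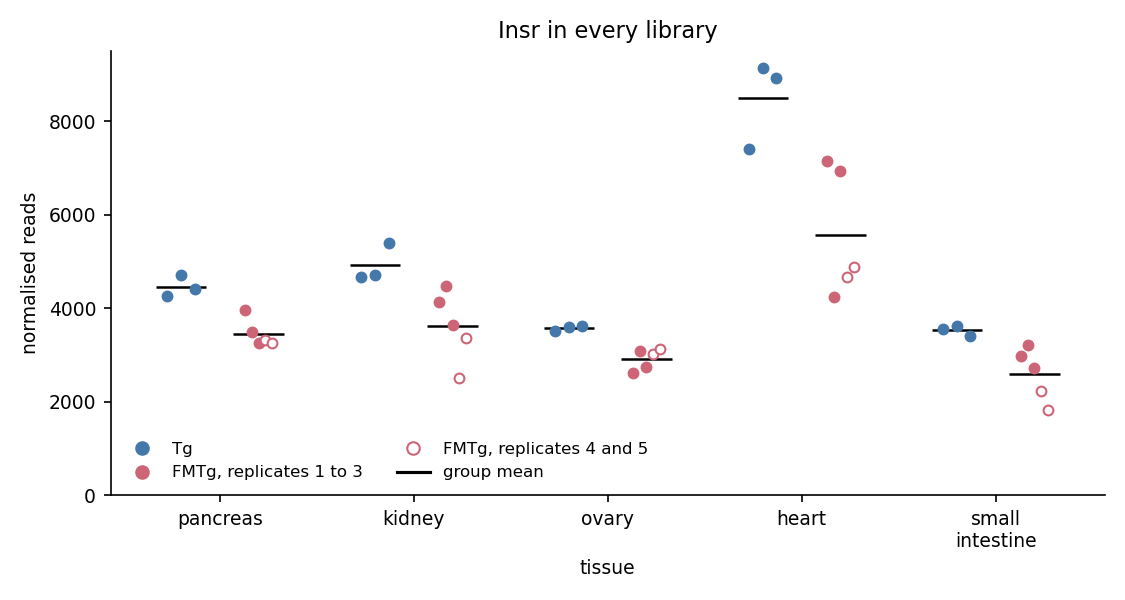
Normalised reads of Insr (vertical axis, from 0) in each library of the 5 tissues (horizontal axis), with Tg in blue, FMTg in red, FMTg replicates 4 and 5 as open circles and group means as lines. In every tissue all 5 FMTg points lie below all 3 Tg points.

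All 25 FMTg libraries thus had less Insr than the lowest Tg library of their tissue, while no single tissue passed the test over all genes. As a share of the Tg mean, the FMTg libraries held 49.9% to 84.1% in the heart, 51.0% to 90.8% in the kidney, 51.5% to 91.0% in the small intestine, 73.1% to 88.7% in the pancreas and 73.4% to 87.6% in the ovary. Among 14532 genes tested in all 5 tissues, Insr was the 1 gene with FMTg below Tg without overlap in each of them (0.00688%), and 17 genes (0.117%) lay above in each. The 5 comparisons share their 3 Tg mice, and most FMTg mice also gave libraries of several tissues. The comparisons are therefore not independent of each other, and the 25 FMTg libraries are not 25 mice. The 5 tissue differences were not shown to differ among themselves (F test in limma, unadjusted p = 0.679, adjusted p = 0.9999).

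Without FMTg replicates 4 and 5 the mean difference of Insr was -0.34 ± 0.07 (adjusted p = 0.00738), and no tissue passed. The heart difference was then -0.51 ± 0.24, without the 2 libraries that carry hepatocyte transcripts. The kidney difference was -0.27 ± 0.10 and that of the small intestine -0.25 ± 0.10, both over 1.5 times smaller than with all libraries, while pancreas and ovary gave -0.32 ± 0.11 and -0.35 ± 0.11. The labels do not give the sex of the mice, and among mice that also gave an ovary, which are therefore female, the mean difference was -0.34 ± 0.07 (adjusted p = 0.0129). These mice include all 3 Tg mice. Outside the ovary this fit also leaves out FMTg replicates 4 and 5, so it cannot separate sex from those replicates. The call rests on all 3 Tg mice. Leaving out Tg replicate 1, 2 or 3 in every tissue gave an adjusted p of 0.102, 0.273 or 0.241, with differences of -0.50, -0.45 and -0.45. Leaving out each of the 10 FMTg mice kept the call, with an adjusted p of 0.00482 to 0.0372.

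**Figure D2:**
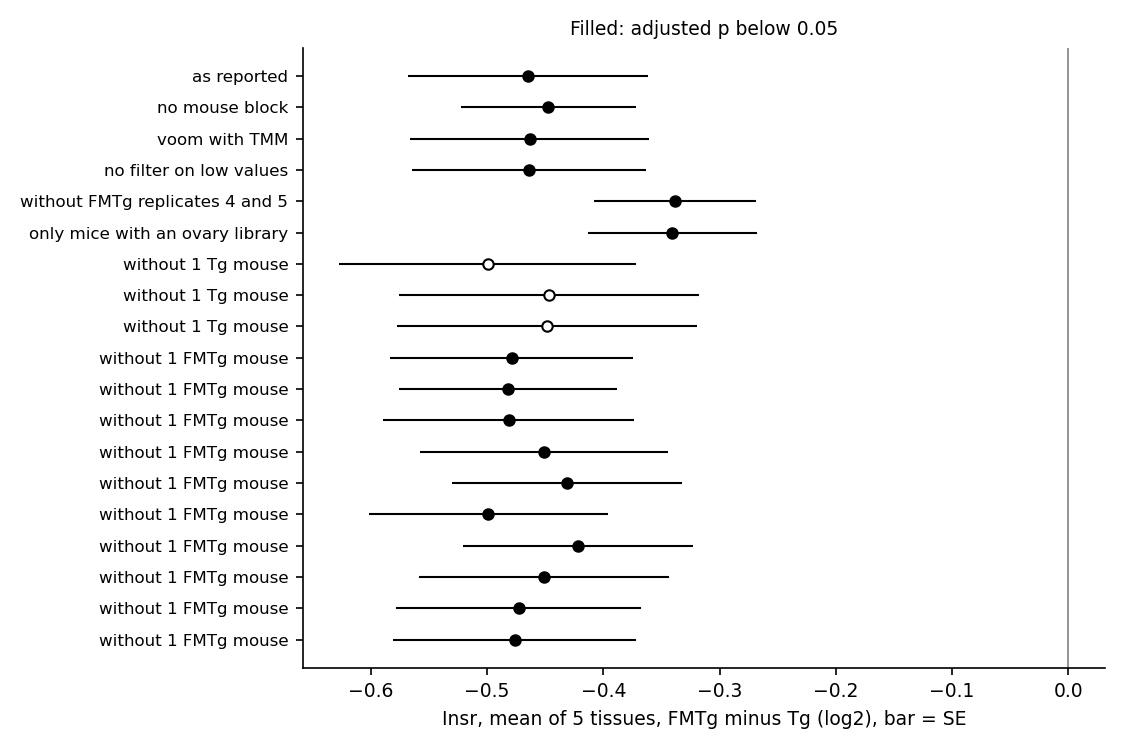
Mean difference of Insr over the 5 tissues (horizontal axis, log2, FMTg minus Tg, with its standard error) as reported and under each other setting (rows). Filled points passed at an adjusted p below 0.05; the 3 open points leave out 1 Tg mouse each, and every point lies below 0.

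Igf1r encodes the IGF1 receptor (ENSMUSG00000005533.10, chromosome 7, 67952827 to 68233668, plus strand). Its mean difference was -0.43 ± 0.18 (adjusted p = 0.317), close in size to that of Insr but with a wider error, and it did not pass. Heart Tg libraries had 2197, 2123 and 2216 normalised reads and heart FMTg libraries 1346, 2512, 2181, 857 and 1116. Replicates 1, 4 and 5 were below the Tg libraries, replicate 2 was above them, and the groups overlapped. In the pancreas the Tg range was 2326 to 2581 and the FMTg range 1435 to 2464, with 1 FMTg library inside the Tg range and a difference of -0.42 ± 0.18 (adjusted p = 0.570). Without FMTg replicates 4 and 5 the mean difference was -0.14 ± 0.13 (adjusted p = 0.727).

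Igf2r encodes the receptor that takes up IGF2 and mannose 6-phosphate-tagged enzymes (ENSMUSG00000023830.14, chromosome 17, 12682406 to 12769664, minus strand), and its upstream window is the one shown above with 3 GC boxes and 2 E-boxes. In the kidney the Tg libraries had 5517, 4911 and 5127 normalised reads and the FMTg libraries 6352, 7522, 5832, 8295 and 8419. All FMTg kidneys were above all Tg kidneys (FMTg higher without overlap for 4.17% of all genes), by 0.48 ± 0.15 (adjusted p = 0.431). In the pancreas the Tg values were 4116, 5322 and 4356 and the FMTg values 6180.2, 5699, 5948, 5458 and 5710.3, again without overlap (4.68% of all genes), with a difference of 0.34 ± 0.13 (adjusted p = 0.493). The groups overlapped in the ovary, heart and small intestine, where the differences ran from -0.03 to 0.19. The mean difference was 0.22 ± 0.10 (adjusted p = 0.392) and did not pass. Without FMTg replicates 4 and 5 it was 0.29 ± 0.07 and passed (adjusted p = 0.0326), higher in FMTg, the opposite direction to Insr.

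Irs1, the adaptor that couples the receptors to PI3-kinase in many tissues (ENSMUSG00000055980.2, chromosome 1, 82233101 to 82291416, minus strand), did not pass in any tissue. Pancreas Tg libraries had 478, 281 and 196 normalised reads and FMTg libraries 463, 369, 649, 721 and 719. Replicates 3, 4 and 5 were above the Tg libraries, replicates 1 and 2 lay within their range, and the difference was 0.91 ± 0.33 (adjusted p = 0.472). In the heart the Tg values were 1654, 1949 and 1737 and the FMTg values 1530.0, 851, 1637, 992 and 1437. These were all below the Tg hearts (3.49% of all genes), with a difference of -0.51 ± 0.23 (adjusted p = 0.760). The other 3 tissues overlapped, and the mean difference was -0.08 ± 0.28 (adjusted p = 0.938). An annotated gene on the opposite strand, Gm9747, covers 30.9% of the exon bases of Irs1 and had at most 6.54 normalised reads in any library. The strand setting of the count is not given in the sources used here.

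Irs2, the adaptor that is a FOXO target in liver and is needed by beta cells (ENSMUSG00000038894.7, chromosome 8, 10984681 to 11008458, minus strand), overlapped between the groups in all 5 tissues. Its differences ran from 0.06 in the heart to 0.57 in the ovary, with a mean of 0.24 ± 0.16 (adjusted p = 0.551). In the ovary the Tg values were 300.1, 555 and 468 and the FMTg values 427, 746, 569.6, 815 and 712, so 4 FMTg ovaries were above the Tg range and replicate 1 was inside it.

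Igf1 encodes the ligand of the IGF1 receptor (ENSMUSG00000020053.18, chromosome 10, 87858265 to 87937042, plus strand). Its values overlapped between the groups in every tissue, and the mean difference was 0.48 ± 0.34 (adjusted p = 0.590). Heart Tg libraries had 670.2, 216 and 226 normalised reads and heart FMTg libraries 458, 1160.4, 468, 3074 and 972, a difference of 1.54 ± 0.65 (adjusted p = 0.760). The highest value, in FMTg replicate 4, was in the heart library with the most hepatocyte transcripts, and liver is the main source of circulating IGF1. Replicate 2 had the highest fibroblast (2.26) and macrophage (1.77) markers of the hearts, and the part of any of these in the Igf1 values was not tested. Without replicates 4 and 5 the heart difference was 0.96 ± 0.56 (adjusted p = 0.779).

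Igfbp4 encodes a binding protein that restrains IGF1 until PAPP-A cleaves it (ENSMUSG00000017493.12, chromosome 11, 99041244 to 99054392, plus strand). Pancreas Tg libraries had 1672, 1483 and 1623 normalised reads and FMTg libraries 2856, 5256, 3624, 2187 and 3465. All FMTg pancreases were above the narrow Tg range (4.68% of all genes), with replicate 2 the highest. The difference was 1.06 ± 0.24 (adjusted p = 0.155), the smallest adjusted p of the 50 pairs of member and tissue, and it did not pass. It passed with library weights (adjusted p = 0.00656) and without FMTg replicate 4 (adjusted p = 0.0418), and over its 16 other settings the adjusted p reached 0.592. Endothelial markers were 0.27 to 0.82 above the Tg mean in the FMTg pancreases and -0.03 to 0.04 in Tg. Fibroblast markers were 0.53, 0.88, 0.19, -1.17 and 0.41 in FMTg replicates 1 to 5, against -0.11 to 0.13 in Tg. Macrophage markers were 0.79, 0.89, 0.08, -1.12 and 0.94 in the same libraries, against -0.34 to 0.29 in Tg. Replicate 4, the lowest FMTg pancreas for Igfbp4 and for both marker lists, was still above all Tg libraries for Igfbp4. The kidney marker genes took 0.00575% to 0.523% of FMTg pancreas reads, against 0.0104% to 0.0142% in Tg. The part of all these markers in the Igfbp4 values was not tested.

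Outside the pancreas, high Igfbp4 was found in some libraries and not in others. In the heart the FMTg values were 1611, 4978, 2091, 8538 and 4113 against 1734, 1401 and 1817 in Tg, and replicates 2, 4 and 5 were the high ones. Replicate 2 had the highest fibroblast markers (2.26) and replicates 4 and 5 the hepatocyte transcripts. Fibroblast markers were 0.17 and 0.72 in replicates 4 and 5. They were 0.73 and 0.72 in replicates 1 and 3, the FMTg hearts with the least Igfbp4, of which replicate 3 was above all Tg hearts. The kidney marker genes took 0.00144% to 0.243% of FMTg heart reads and 0.0184% to 0.0438% of Tg heart reads. The part of all these transcripts in the heart values was not tested. In the ovary FMTg replicates 4 and 5 had 5407 and 5257 normalised reads, and the other 3 had 2183, 2118.9 and 1593, next to 1892, 1934 and 2457 in Tg. The same 2 ovaries carried the adipocyte transcripts and the highest endothelial markers (0.58 and 1.07), whose part in the result was not tested. Without replicates 4 and 5 the differences were -0.10 ± 0.17 for the ovary, 0.64 ± 0.41 for the heart and 1.25 ± 0.21 for the pancreas (adjusted p = 0.0687).

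Igfbp7 encodes a secreted protein of vessels and matrix that binds IGFs weakly and insulin (ENSMUSG00000036256.13, chromosome 5, 77349240 to 77408041, minus strand). Pancreas Tg libraries had 1036, 895 and 1035 normalised reads and FMTg libraries 1405, 1974, 4595, 1528 and 1962. No FMTg pancreas overlapped the Tg range (4.68% of all genes). Replicate 3 stood far above the rest, and the difference was 1.07 ± 0.34 (adjusted p = 0.362). Heart Tg libraries had 1416, 1305 and 1689.8 and FMTg libraries 1721, 8012, 2637, 2248 and 2782, also without overlap (3.42% of all genes), with replicate 2 the highest and a difference of 1.02 ± 0.44 (adjusted p = 0.760). The kidney, which had the most Igfbp7, had 9769, 9547 and 9603 in Tg and 11208, 10088, 11191, 12492 and 12653 in FMTg. Kidney groups did not overlap (4.17% of all genes), with a difference of 0.25 ± 0.12 (adjusted p = 0.564). Endothelial markers, over 6 genes, were 0.27 to 0.82 above the Tg mean in the FMTg pancreases and -0.03 to 0.04 in Tg. They were highest in replicate 3 and next in replicate 4 (0.63), which had 1528 normalised reads of Igfbp7. In the kidney they were -0.05 to 0.37 in FMTg and -0.09 to 0.12 in Tg, which overlap. In the heart, endothelial markers were -0.05 to 0.76 in FMTg, highest in replicate 5, and -0.23 to 0.15 in Tg, which overlap. Macrophage markers there were 0.46 to 1.77 in FMTg and -0.33 to 0.17 in Tg. Fibroblast markers were 0.17 to 2.26 in FMTg hearts and -0.16 to 0.28 in Tg hearts. Macrophage and fibroblast markers were both highest in FMTg replicate 2. The kidney marker genes took 0.00575% to 0.523% of FMTg pancreas reads and 0.0104% to 0.0142% of Tg pancreas reads. In FMTg hearts they took 0.00144% to 0.243%, against 0.0184% to 0.0438% in Tg hearts. The part of these cell types and of kidney RNA in the Igfbp7 values was not tested.

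Igfbp5, the binding protein of bone, muscle and kidney that is held in the matrix (ENSMUSG00000026185.8, chromosome 1, 72857932 to 72874884, minus strand), had the largest difference of the 50 pairs of member and tissue. Pancreas Tg libraries had 689, 322 and 117 normalised reads and FMTg libraries 363, 584, 2671, 1516 and 2546. Replicates 3, 4 and 5 were high, replicates 1 and 2 lay within the Tg range, and the difference was 1.95 ± 0.75 (adjusted p = 0.503). It passed in the single model of all libraries (adjusted p = 0.0369) and in no other of its 16 settings, where the adjusted p reached 0.997. The difference was 0.96 with library weights, 1.30 without Tg replicate 3 and 2.55 without Tg replicate 1. The kidney marker genes took 0.00575% to 0.523% of FMTg pancreas reads, against 0.0104% to 0.0142% in Tg. The part of kidney RNA in the Igfbp5 values was not tested. In the ovary the Tg values were 2817, 4325 and 3410.3 and the FMTg values 6859, 5016, 4115, 5389 and 8324, with 4 of 5 FMTg above the Tg range and a difference of 0.73 ± 0.25 (adjusted p = 0.600). The mean difference was 0.61 ± 0.32 (adjusted p = 0.449).

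Igfbp3, the main carrier of IGF1 in blood and the textbook p53 target among the members (ENSMUSG00000020427.11, chromosome 11, 7206086 to 7213923, minus strand), overlapped between the groups in all 5 tissues. Its differences ran from -0.17 in the small intestine to 0.52 in the heart, and the mean was 0.16 ± 0.19 (adjusted p = 0.777). In the pancreas, where Mdm2 and Cdkn1a rose, the Tg values were 1019.8, 542 and 1273 and the FMTg values 895, 1086, 1433, 770.1 and 473. In the kidney, where they also rose, the Tg values were 3053, 2934 and 3131 and the FMTg values 3428, 3737, 3034, 2914 and 4543, a difference of 0.20 ± 0.15 (adjusted p = 0.586).

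**Figure D3:**
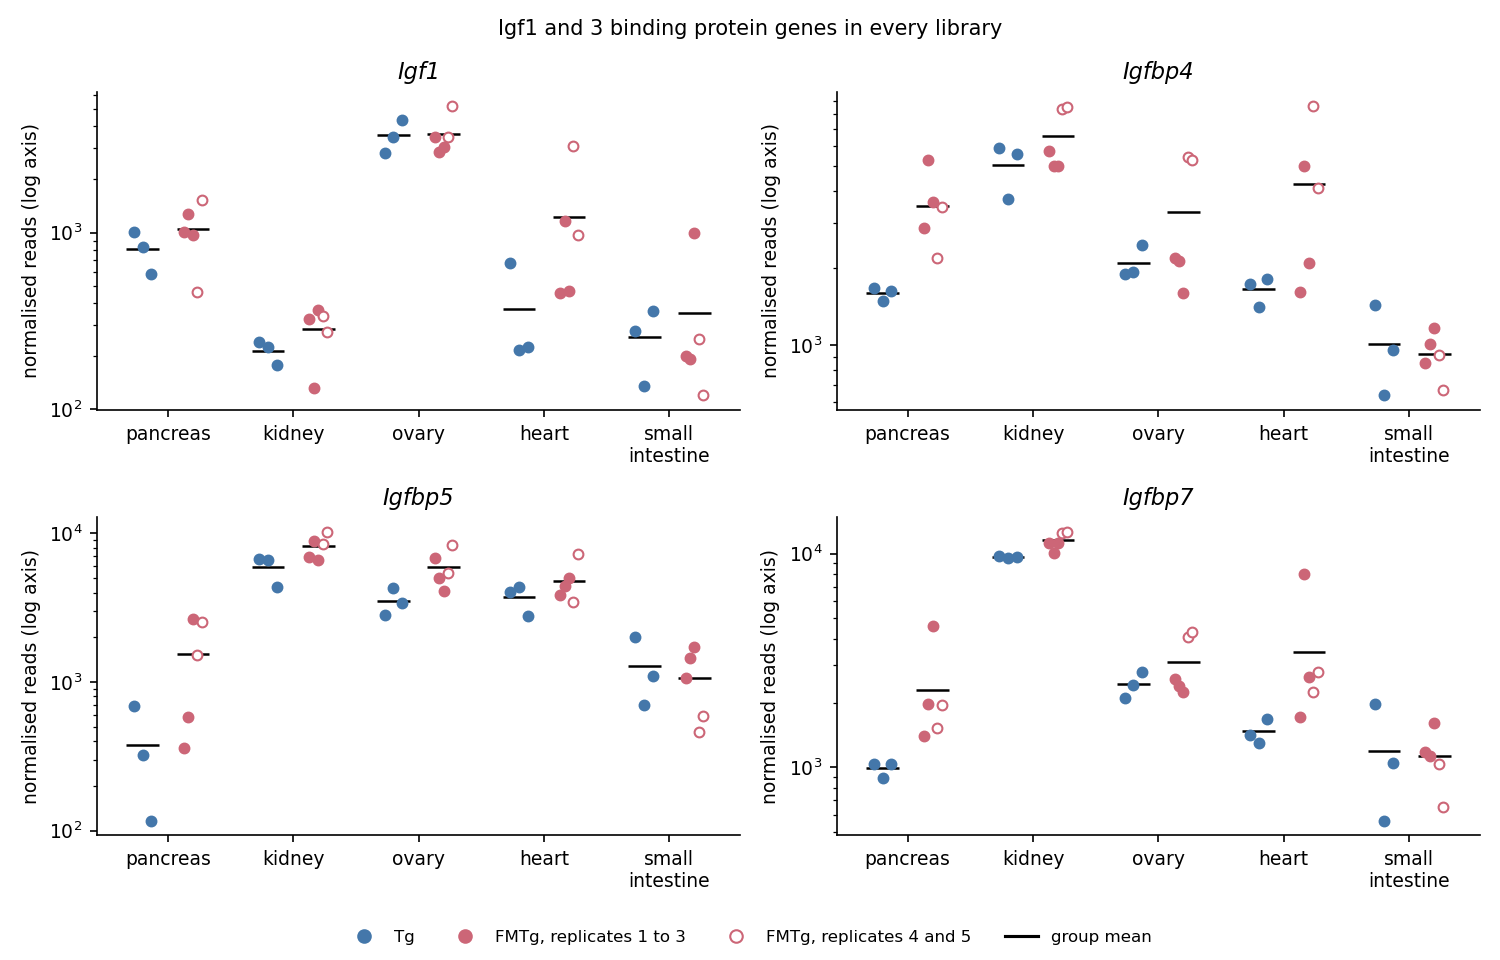
Normalised reads (vertical axes, log scale) of Igf1, Igfbp4, Igfbp5 and Igfbp7 in each library by tissue (horizontal axes), with Tg in blue, FMTg in red, FMTg replicates 4 and 5 as open circles and group means as lines. The pancreas panels show FMTg above Tg without overlap for Igfbp4 and Igfbp7, and the ovary panel of Igfbp4 shows replicates 4 and 5 apart from the other libraries.

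Of the 50 pairs of member and tissue, 0 passed limma's test over all genes, with adjusted p values from 0.155 to 0.995, and voom called 0 as well. Over all genes the called share was 0.446% for pancreas, 0.616% for kidney, 0.019% for heart and 0.0% for both ovary and small intestine. An unadjusted p below 0.05 was reached by 7 of 10 members for pancreas (8.42% of all genes there), 3 for kidney (8.32%), 2 for ovary (6.36%), 3 for heart (6.33%) and 1 for small intestine (2.41%). The groups did not overlap in 12 pairs, 6 lower and 6 higher in FMTg. The 6 lower pairs are Insr in each tissue and Irs1 in the heart, and the 6 higher pairs belong to Igfbp7 (3), Igf2r (2) and Igfbp4 (1). Among pancreas values 3 of 10 members were higher (4.68% of all genes) and 1 lower (5.05%) without overlap. The kidney had 2 higher (4.17%) and 1 lower (4.56%), and the heart 1 higher (3.42%) and 2 lower (3.49%). The ovary had 0 higher (3.43%) and 1 lower (2.38%), and the small intestine 0 higher (1.69%) and 1 lower (1.19%).

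**Figure D4:**
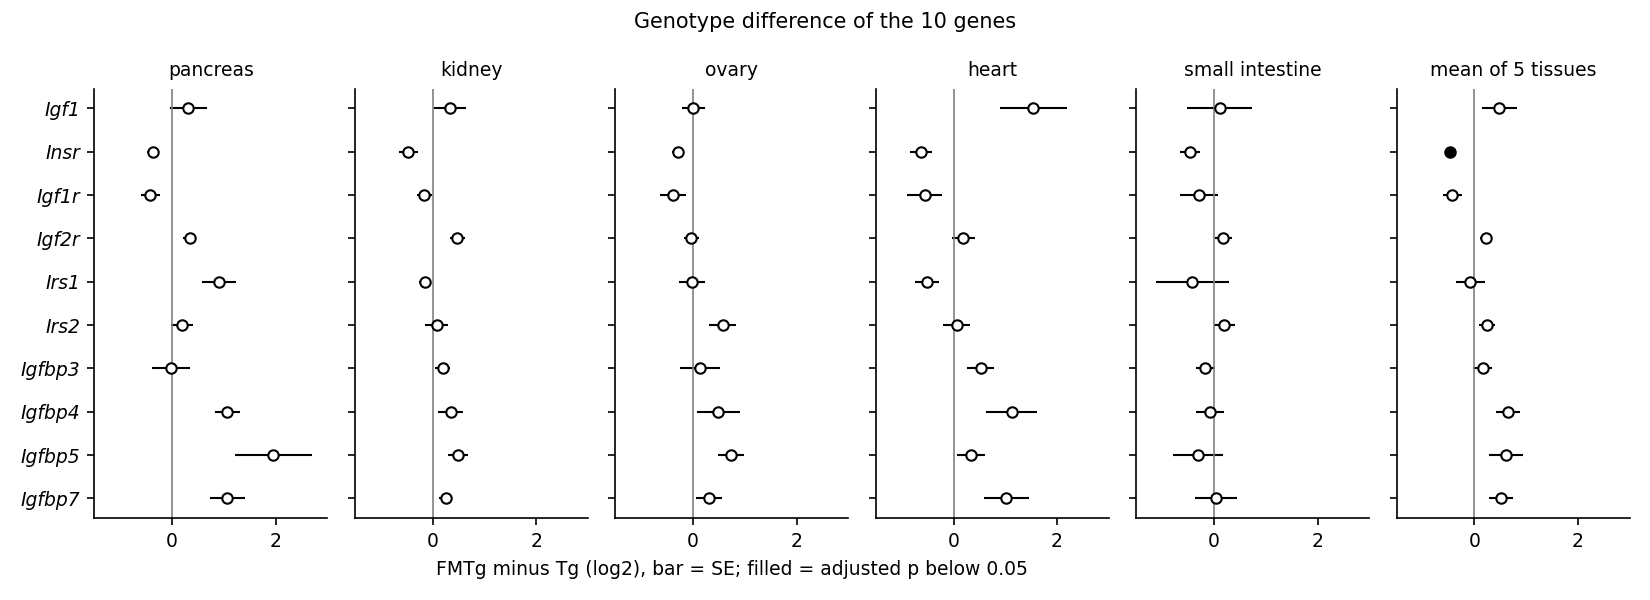
Difference between FMTg and Tg (horizontal axes, log2, with its standard error) for the 10 genes (rows) in each tissue and as the mean of the 5 tissues (panels). The filled point, Insr in the mean of 5 tissues, is the 1 value that passed at an adjusted p below 0.05.

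On the mean of the tissues 7 members had differences above 0 and 3 below, with a median of 0.23, while 60.0% of all genes tested lay below 0 with a median of -0.06. All 4 binding protein genes and Igf1 had mean differences above 0, from 0.16 for Igfbp3 to 0.65 for Igfbp4, and none passed. No member passed the F test of differences between tissues, which 0.192% of 16185 genes passed. The smallest adjusted p was 0.415 for Igfbp5, so the pancreas values of the binding proteins were not shown to differ from those of other tissues.

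Genes of the same pathway outside the 10 members passed in 1 case. Foxo3, a FOXO factor that AKT holds in the cytoplasm and a p53-responsive gene, rose in the pancreas by 1.11 ± 0.18 (limma, adjusted p = 0.0337), the 1 of 16 FOXO and insulin-response genes called there. Its call was lost in 5 of 8 fits that left out a library, with an adjusted p of up to 0.236. In the other tissues 0 of these 16 were called. Pdk4, a kinase that shuts off pyruvate oxidation and is lowered by insulin, differed by -2.13 ± 0.43 (adjusted p = 0.563) in the heart and by -0.94 ± 0.25 in the small intestine (adjusted p = 0.990). All FMTg libraries of both tissues were below the Tg libraries for Pdk4. Tbc1d4, an AKT substrate of glucose transporter traffic, differed by -0.41 ± 0.10 in the kidney (adjusted p = 0.274). Bcl6, a repressor induced by FOXO, differed by -0.77 ± 0.21 in the ovary (adjusted p = 0.461). Both were lower without overlap, as were 4.56% of all genes in the kidney and 2.38% in the ovary.

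Among 21 genes from PI3-kinase to mTORC1, 0 were called in any tissue, and 14 had a mean difference over tissues below 0, with a median of -0.07, close to that of all genes. Akt2, the AKT isoform of insulin-responsive tissue, differed by -0.72 ± 0.20 in the pancreas (adjusted p = 0.272), without overlap (5.05% of all genes). Rheb, the GTPase that switches on mTORC1, differed by -0.35 ± 0.14 in the ovary (adjusted p = 0.720), without overlap (2.38% of all genes). Mtor differed by -0.36 ± 0.15 in the heart (adjusted p = 0.760), without overlap (3.49% of all genes). The PI3-kinase subunit Pik3cb had -0.28 ± 0.14 in the small intestine.

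Of 15 adaptors and brakes of the receptors 14 were tested in each tissue and 0 were called, with 11 mean differences over tissues below 0 and a median of -0.11. The smallest p per tissue belonged to Sh2b1, an adaptor that enhances insulin signalling, in the pancreas (0.60 ± 0.17, without overlap, 4.68% of all genes). In the kidney it belonged to Socs3, a feedback inhibitor (-0.86 ± 0.40). In the ovary it belonged to Trib3, an AKT-binding pseudokinase (-0.76 ± 0.42), in the heart to Grb10, an inhibitory adaptor (0.22 ± 0.11), and in the small intestine to Enpp1, an inhibitor of the insulin receptor (-0.44 ± 0.25). Adjusted p values of these 5 ran from 0.285 to 0.990.

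Other ligand and binding protein genes, 6 to 8 tested per tissue, gave 0 calls, and their median mean difference was -0.14. Igfbp6, a binding protein with a preference for IGF2, had 1.32 ± 0.54 in the pancreas (adjusted p = 0.551). Igfals, the third partner of the circulating IGF1 complex, had -0.42 ± 0.23 in the kidney, without overlap (4.56% of all genes). It had -0.80 ± 0.84 in the small intestine, and Igfbpl1 had -0.78 ± 0.38 in the ovary. Ins2, an insulin gene of beta cells, had -1.46 ± 0.51 in the heart, without overlap (3.49% of all genes) but on few reads. The 6 islet genes, Ins2 included, took 0.000106% to 0.000375% of Tg heart reads. Acinar genes ran from -7.31 to 0.80 in FMTg hearts and -0.60 to 0.81 in Tg hearts. The part of pancreas RNA in the Ins2 values was not tested. The 6 proteases and protease regulators of binding proteins gave 0 calls. The smallest p was that of Htra1 in the pancreas (0.65 ± 0.37) and of Pappa in the kidney (-0.71 ± 0.41). In the heart it was that of Stc2 (0.36 ± 0.26) and in the small intestine that of Pappa2 (-0.86 ± 0.54). In the ovary it was that of Adam12 (-0.48 ± 0.16), without overlap (2.38% of all genes). The 6 genes of the growth hormone axis, which drives hepatic IGF1, also gave 0 calls. Medians of the mean difference were -0.16 for the protease genes, 0.07 for the growth hormone genes and -0.19 for the FOXO and insulin-response genes. Socs2, a feedback inhibitor of growth hormone signalling, had 1.02 ± 0.36 in the pancreas, without overlap (4.68% of all genes). The receptor gene Ghr had 0.68 ± 0.47 in the ovary and 0.30 ± 0.13 in the heart, Jak2 had -0.16 ± 0.10 in the kidney and Stat5b had -0.25 ± 0.14 in the small intestine.

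In the control tissues all 10 members differed between tissues (limma F test over 15 Tg libraries, adjusted p from 7.26e-07 for Insr to 0.00126 for Irs2), as did 93.9% of all genes. Of all pairs of tissues over all genes, 57.1% differed, so a difference between tissues is the usual case. Per kilobase of exon, Igfbp7 was the most abundant member in each tissue, from 818 ± 67.1 (SD, n = 3) normalised reads per kilobase in the pancreas to 7973 ± 95.5 in the kidney. Igf1 was the lowest of the 10 in the kidney (21.7 ± 3.31), heart (37.4 ± 26.2) and small intestine (26.0 ± 11.4), and the fourth highest in the ovary (358 ± 77.2).

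Insr was highest in the heart, at 617 ± 68.7 normalised reads per kilobase, followed by the kidney (358 ± 29.4), pancreas (324 ± 16.5), ovary (259.9 ± 4.36) and small intestine (256 ± 8.61). The heart exceeded the kidney by 0.78 ± 0.10 (adjusted p = 2.31e-05) on the log2 scale, and the pancreas exceeded the ovary by 0.32 ± 0.10 (adjusted p = 0.0127). The test did not separate kidney from pancreas or ovary from small intestine. Igf1r was highest in the kidney (323 ± 39.7) and ovary (239 ± 61.3), which the test did not separate, and lowest in the small intestine (62.0 ± 25.4). The ovary exceeded the pancreas by 0.69 ± 0.25 (adjusted p = 0.0302) and the heart exceeded the small intestine by 1.14 ± 0.25 (adjusted p = 0.00171). With TMM scaling the kidney exceeded the ovary (0.68 ± 0.24, adjusted p = 0.0286) and the ovary was not separated from the pancreas. The heart, with the most Insr, thus had 129.8 ± 2.91 of Igf1r. Igf2r was highest in the heart (879 ± 140), 0.65 ± 0.16 (adjusted p = 0.00352) above the kidney, and lowest in the ovary (355 ± 46.6), with kidney, pancreas and small intestine not separated.

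The adaptors had unlike orders. Irs1 was highest in the ovary (163 to 306 normalised reads per kilobase in the 3 libraries), heart (195 ± 16.6) and kidney (116 ± 14.2), neighbours that were not separated, and the kidney exceeded the pancreas by 1.80 ± 0.46 (adjusted p = 0.00454). The pancreas (34.8 ± 15.8) and small intestine (33.2 ± 22.3) were not separated. Irs2 was highest in the small intestine (159 ± 23.4) and lowest in the ovary (69.7 ± 20.5), and no neighbours in its order were separated. With the mouse as a replicate block the heart exceeded the pancreas in Irs2 (0.46 ± 0.17, adjusted p = 0.0368), and 7 rather than 5 of the 10 pairs of tissues differed. Without Tg replicate 2 or 3 the number for Irs2 was 3. Leaving out Tg replicate 3 also lowered the number of pairs that differed from 8 to 4 for Insr and Igf1r, from 7 to 3 for Igf2r and from 7 to 4 for Igfbp4. For Igfbp5 it went from 7 to 4 without Tg replicate 2.

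Igf1 was 2.14 ± 0.42 (adjusted p = 0.000818) higher in the ovary than in the pancreas on the log2 scale and 1.28 ± 0.42 (adjusted p = 0.0194) higher in the pancreas than in the heart. Heart, small intestine and kidney were not separated in Igf1. The kidney led for all 4 binding protein genes. Its Igfbp3 (971 ± 31.7 normalised reads per kilobase) exceeded the pancreas by 1.76 ± 0.30 (adjusted p = 0.000321), and the other 4 tissues were not separated by neighbour. Its Igfbp4 (1144 ± 266) exceeded the ovary by 1.25 ± 0.25 (adjusted p = 0.000946), with the small intestine the lowest (228 ± 90.6). Its Igfbp5 (984 ± 228) was not separated from the heart (623 ± 140), nor the heart from the ovary, while the pancreas was the lowest (62.6 ± 48.3). Its Igfbp7 exceeded the ovary (2019 ± 287) by 1.99 ± 0.32 (adjusted p = 0.000170).

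**Figure D5:**
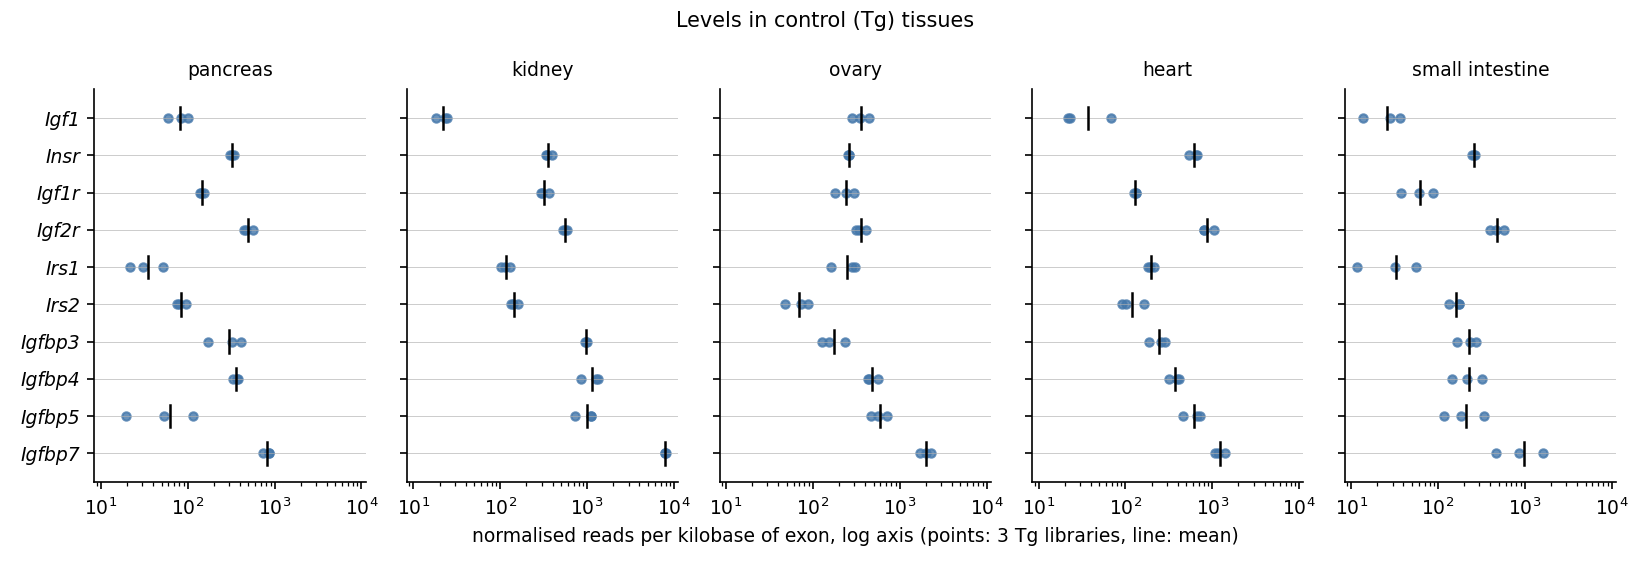
Normalised reads per kilobase of exon (horizontal axes, log scale) of the 10 genes (rows) in the 3 Tg libraries of each tissue (panels), with points for libraries and a line at the mean. Igfbp7 is the rightmost gene in every panel, and Igf1 moves from the left in the kidney, heart and small intestine to the middle in the ovary.

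Across all 40 libraries, whose values share tissue, genotype and mouse, the members' closest genes are given as Pearson correlations. For Insr these were Fitm2 (r = 0.92), a lipid droplet gene, and Klhl21 (0.89). After subtraction of each tissue and genotype mean they were the fatty acid transporter Slc27a1 (0.74) and the autophagy gene Wipi1 (0.74). Irs1 was closest to the actin regulator Enah on both measures (0.98 and 0.93), followed by Arhgef17 (0.95) and Rassf8 (0.88). Igfbp7 was closest in values to Renbp (0.94) and to the endocytic adaptor Dab2 (0.94), and in deviations to Dab2 (0.82) and the elastic fibre gene Fbln5 (0.82). Igfbp4 was closest in deviations to the lipopolysaccharide-binding protein gene Lbp (0.89) and the complement gene C1ra (0.86), and in values to Bicc1 (0.88) and Tmem184c (0.88).

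The closest genes in values were Rab34 (0.95) and Galc (0.93) for Igf1r, and Ndufa13 (0.88) and Retreg1 (0.86) for Igf2r. In deviations they were Pkd2 (0.87) and Cplane1 (0.86) for Igf1r, and Ctnnb1 (0.68) and Arhgef10l (0.65) for Igf2r. For Irs2 the highest were Gpd1 (0.77) and Acbd4 (0.77) in values, and the transcription factor gene Cebpb (0.67) and Elmod3 (0.64) in deviations. Igf1 was closest to Rcn1 (0.93) and the complement gene C1s1 (0.89) in values, and to Serpinf1 (0.76) and the liver enzyme gene Aox3 (0.75) in deviations. Igfbp3 was closest to Cyba (0.90) and Grina (0.90) in values and to Ifi207 (0.75) and Ift27 (0.71) in deviations. Igfbp5 was closest to Cpq (0.92) and Aplp2 (0.92) in values and to Fhod3 (0.81) and Fgf1 (0.81) in deviations. Among the members themselves the highest correlation of values was that of Igfbp4 and Igfbp7 (0.84), and the highest of deviations was that of Irs1 and Igfbp5 (0.71). Insr and Igf1r, the paired receptors, had 0.22 in values and 0.35 in deviations.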

How the data were processed

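RNA was sequenced from 40 mouse libraries, and the authors deposited 1 table of 18024 genes in log2 units, in the form DESeq2's variance-stabilising transform gives. STAR 2.6.0b, DESeq2 and GRCm38 are named in the submitters' processing notes; the counting tool, annotation and strand setting are not given in the sources used here. The transform was inverted, and 100.0% of 720960 values came out within 0.01 of a whole read, which gave the depths and the normalised reads printed. Small fold changes of low genes are compressed on the deposited scale. Positions and exon lengths are from GENCODE M21 (GRCm38), which matched 17093 of 18024 identifiers, and 52 genes had no read.

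Within each tissue, genes whose mean exceeded the table's lowest value by 1 or more entered limma 3.58.1 (R 4.3.3, mean-variance trend), with Benjamini-Hochberg adjustment over all of them and a threshold of 0.05. One model of all 40 libraries, with the mouse as random block (correlation 0.249), gave the mean over tissues and the F test of differences between tissues. A model of the 15 Tg libraries compared tissues, its pairwise p-values being adjusted over all genes. The procedure was tested on simulated data with known changes. These changes were all larger than that of Insr, so a change of its size was not tested. The simulated libraries were drawn without a mouse effect, so the mouse block was not tested. Replicates are mice; the Tg mice are shared by all tissues, with same-mouse correlations of deviations across tissues of -0.20 to 0.43 (median 0.06, 30 pairs) against a median of -0.03 between mice. Tg and FMTg libraries of the same number are different mice.

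The members and all gene lists were chosen with earlier results of these data known. Named are all members, up to 4 called genes per pathway list and tissue or else the gene with the smallest p, Mdm2 and Cdkn1a, and the 2 closest genes per member and measure; predicted gene models were left out of the pathway and closest genes. Alternatives were voom with TMM on the recovered reads, no filter, no trend, library weights, blocks, 1 model, and leaving out libraries or mice. The 2 fits of the mean and the difference over mice with an ovary library were chosen after seeing the data. Python 3.11.15, numpy 2.4.6, pandas 2.3.3, statmod 1.5.0 and matplotlib 3.10.9 were also used. The gene of smallest p for 1 list and tissue is not reported here.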

Additional observations from a re-analysis of the deposited data

Results flagged for a closer look

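In 2 of 50 FMTg groups of 5 libraries, 1 library stood apart from the others by Dixon's criterion, which chance meets in about 1 of 20 groups. Igf1 was 132 normalised reads in kidney FMTg replicate 2, and 275 to 364 in the other 4 FMTg kidneys. Igfbp7 was 4595 normalised reads in pancreas FMTg replicate 3, and 1405 to 1974 in the other 4 FMTg pancreases.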

How the results depend on the processing

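No result changed direction past its threshold. Of the single-gene values under an alternative, 1203 kept their side of the threshold, 4 gained a call and 3 lost it. Members called in the pancreas numbered 0 as reported and 1 with library weights (Igfbp4) or in 1 model of all libraries (Igfbp5), and 0 to 1 when a library was left out. On the mean of the tissues 1 member was called as reported, 2 without FMTg replicates 4 and 5 (Insr and Igf2r), and 0 to 1 when a mouse was left out. Over all genes the pancreas calls (68 as reported) were 44 with voom and TMM, 10 without the variance trend, 568 with library weights, 0 with a replicate block, 109 without FMTg replicates 4 and 5, 2 in mice with an ovary library, 315 in 1 model and 9 to 93 with a library left out. The kidney calls (95) were 211 with weights, 59 in 1 model and 46 to 94 with a library left out. The ovary calls (0) were 17 with weights, 63 in 1 model and 0 to 3 with a library left out; the heart calls (3) were 26, 27 and 1 to 4, with 0 under the replicate block and 1 without FMTg replicates 4 and 5 or in mice with an ovary library. The small intestine calls (0) were 55 with weights and 30 in 1 model. The mean over tissues (118) called 341 without the mouse block, 296 without FMTg replicates 4 and 5, 204 in mice with an ovary library and 54 to 167 with a mouse left out. The difference between tissues (31) called 12 without the mouse block, 3 with voom and TMM, 7 without FMTg replicates 4 and 5 and 3 to 51 with a mouse left out. The causes were not tested. The replicate number as a block called 0 members in each tissue; Tg and FMTg libraries share only a number, with correlations of deviations of -0.59 to 0.59. With the mouse as block in the Tg tissues, all 10 members kept their call.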
